A study of Homo sapiens with 6 samples.

Results

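PARP and base excision repair genes were followed through a pooled map of polyadenylated 3′ ends in IMR-32, an established line of human neuroblastoma cells. The 10 genes were PARP1, PARP2, XRCC1, LIG1, LIG3, OGG1, MUTYH, UNG, TDG and APEX1, out of 20046 protein-coding genes. Every peak whose summit lay in the Gencode body of one of them, or up to 4 kb past its 3′ end, was taken. This gave 77 of the 200023 peaks of the list. Of these, 62 had a −log10 q of at least 5, the cutoff that the study applied to its sample-specific peaks, and counts below refer to them unless stated. The 15 weaker peaks had −log10 q values from 1.97 to 4.97 and 5 to 25 reads at the summit.

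The libraries were made by poly(A) 3′-seq, in which reads start where a transcript meets its poly(A) tail. There were 6 of them, 2 from cells in the solvent DMSO and 2 each from cells treated with THZ531 at 400 nM for 2 h or 6 h. THZ531 binds covalently to CDK12 and CDK13, kinases that phosphorylate RNA polymerase II, and inhibits them. The labels do not give the hours in DMSO of each control library. Peak calling by the authors was done once, after merging the samples, which were assumed to be these 6 libraries. No value belongs to a single library, so the treated cells could not be compared with the DMSO cells, no replicate error exists, the depth of each library is unknown, and no test was made. All libraries came from 1 cell line. Of 7 neuroblastoma genes (HAND2, GATA3, ISL1, DBH, TH, CHGA and NCAM1), all 7 had a transcript-end peak, the tallest with 19 to 71 reads. Of 5 markers of other cell types, EPCAM and COL1A1 had one (7 and 15 reads), whereas the leukocyte gene PTPRC, the hepatocyte gene ALB and the endothelial gene PECAM1 had none.

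Base excision repair removes small base lesions. A DNA glycosylase cuts out the damaged base, an endonuclease nicks the strand at the empty site, a polymerase fills the gap and a ligase seals it. PARP1 and PARP2 bind the resulting breaks and build chains of poly(ADP-ribose), which draw in the scaffold XRCC1 and its partner LIG3. Loss of CDK12 is known to affect the expression of DNA repair genes, and premature cleavage at intronic polyadenylation sites gives truncated transcripts, so the places where these genes can end are of interest. A polyadenylation signal is a hexamer, in its common form AATAAA, that lies shortly upstream of the cleavage site.

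Each value called reads is the number of extended reads piled up at the summit of a peak, solved from the deposited fold enrichment and −log10 p. Duplicate start positions are counted once by the peak caller, so it is a height within the pooled libraries and not an expression level. Exact 95% Poisson intervals are given in brackets. They treat each height as a plain count, which is only approximate once duplicate starts are dropped, and they cover no other error. A summit from 200 bp upstream to 600 bp downstream of any annotated transcript end of the gene was called a transcript-end peak. The remaining summits were called exonic, intronic or downstream. The peak list has no strand, so the strand is always that of the gene in question. Because reads start at the cleavage site, the edge of a peak nearest the 3′ end of the gene was taken as that site. It is called the 3′ edge. In a peak that covers several sites it is only the last of them, so hexamers of the others can lie further from it.

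To show where the signals lie, the sequences at the terminal peaks of 7 genes are given here from GRCh38, on the strand of each gene and with the hexamer in capitals. In PARP1, PARP2 and LIG1 the last base printed is the 3′ edge.
PARP1 chr1:226360690-226360719, minus strand: ctcgATTAAAaatgcagatgccttctctat
PARP2 chr14:20357880-20357909, plus strand: atgtAATAAAaactgtacaggtctaccact
XRCC1 chr19:43543307-43543336, minus strand: atttAATAAAgatgagttggttctcatcca
LIG1 chr19:48115441-48115470, minus strand: ttcAATAAAtaattattggatagctacttt
OGG1 chr3:9757376-9757405, plus strand: gaacAATAAAatagaaacatttgtatggaa
UNG chr12:109110968-109110997, plus strand: tgttAATAAAagtttgttaaaagtttgttt
TDG chr12:103988840-103988869, plus strand: ttacAATAAAagatattaagaattgttatc
In these genes the hexamer began 25, 21, 22, 23, 28, 21 and 31 bases before the end of the canonical transcript, in the order printed. PARP1 carried the variant ATTAAA and the other genes AATAAA.

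The 3′ edges of 5 terminal peaks fell within 13 bp of the canonical end. The distance was 1 bp past it in PARP1, 2 bp in TDG, 4 bp in LIG1, 5 bp in PARP2 and 13 bp in XRCC1. In OGG1 and UNG the edge lay 43 and 65 bp past it. Counted another way, 9 of the 10 canonical ends had some part of a peak within 50 bp, and the exception was LIG3. The same held for 52.6% of all protein-coding genes. By summit, 9 of 10 genes had a transcript-end peak, against 64.0% of protein-coding genes, and here the exception was MUTYH.

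**Figure D1:**
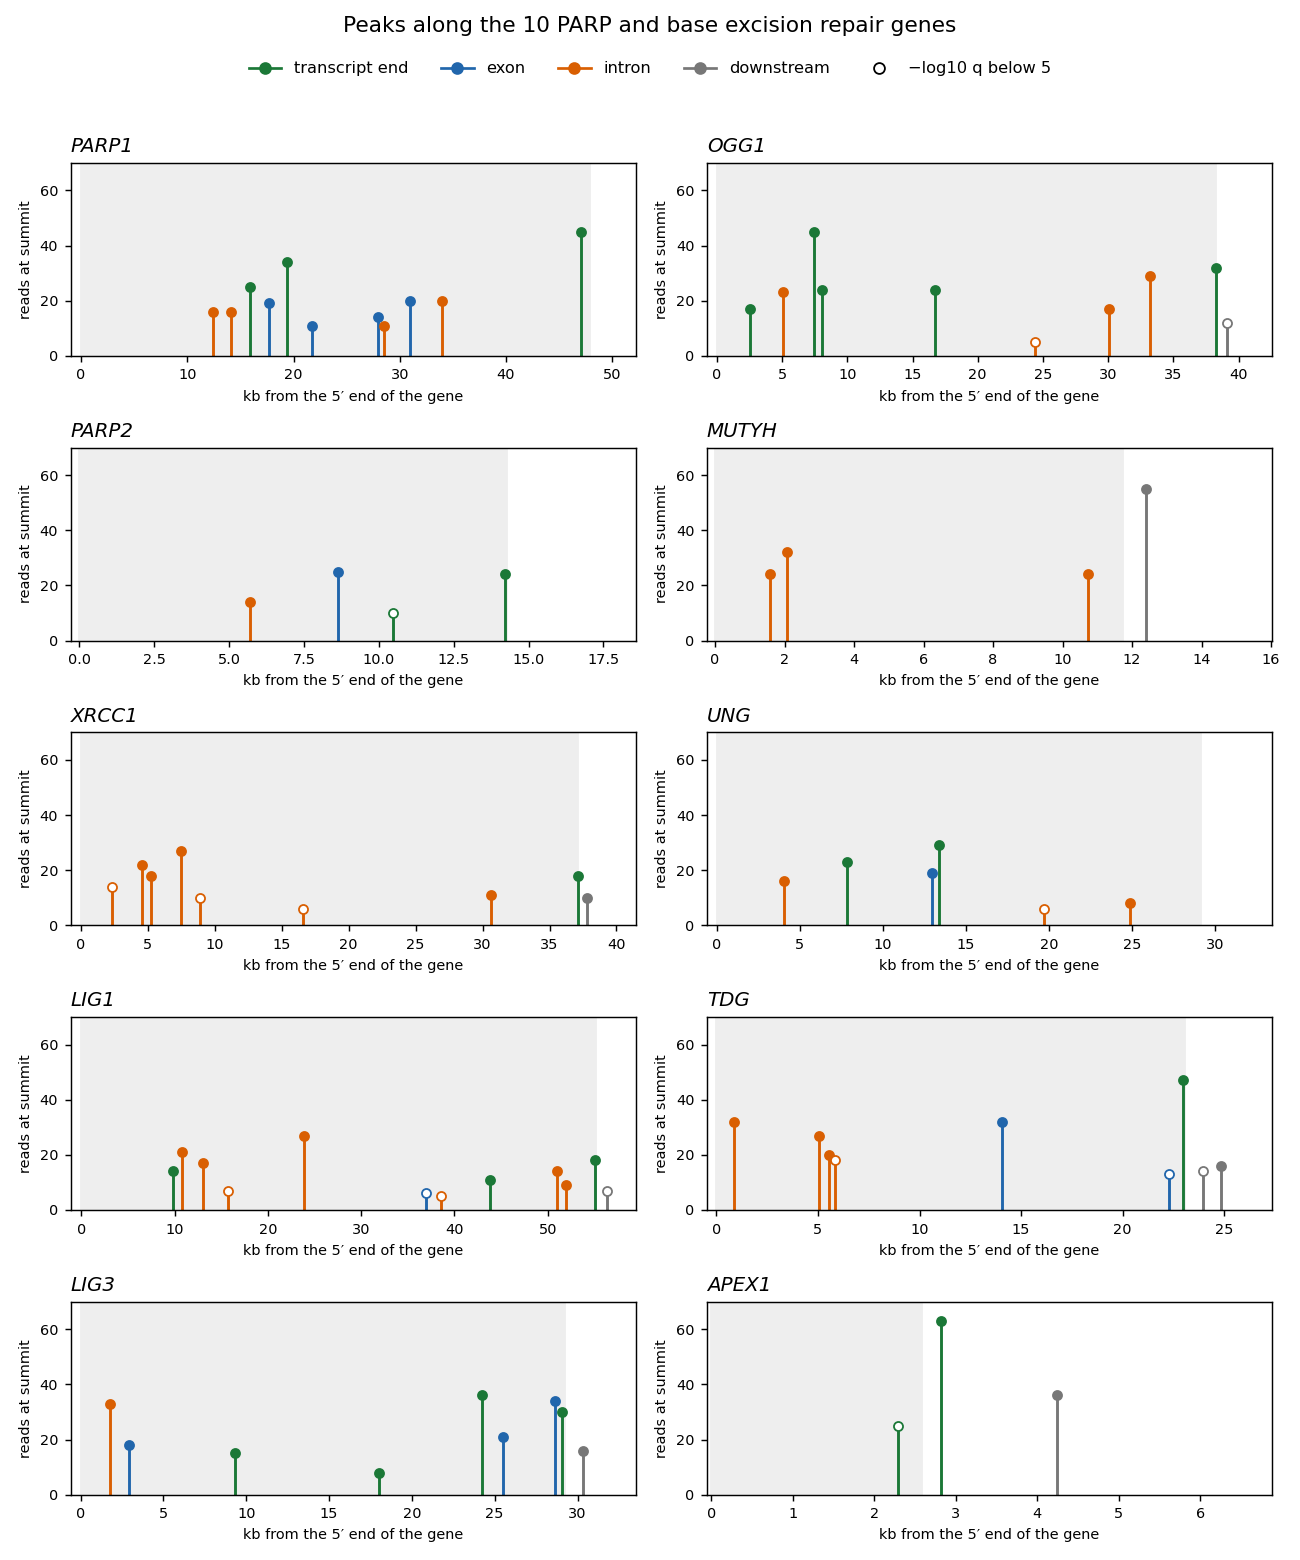
Peaks along each member gene. The x axis gives kb from the 5′ end of the gene, with the annotated gene shaded and 4 kb past its 3′ end in white, and the y axis gives reads at the summit. Colour marks the class of the summit and open circles mark the 15 peaks with −log10 q below 5. Heights run from 5 to 63 reads, and the peaks of PARP1, LIG1 and LIG3 are spread over the gene and not gathered at 1 end.

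PARP1, the main sensor of DNA strand breaks, spans chr1:226360210-226408154 on the minus strand and had 11 peaks, the most of the 10 genes. Its tallest peak covered the end of the last exon, chr1:226360690-226361408. It was 719 bp wide and had 45 reads (32.8 to 60.2). The summit, at 226361089, lay in the last exon upstream of the canonical end at 226360691, so 45 reads is not the height at the printed ATTAAA. The peak counts as transcript-end through another annotated form and as exonic by the canonical form alone. No other annotated gene overlapped any of the PARP1 peaks. The next in height was a 34-read peak (23.5 to 47.5) at chr1:226388701-226388853, whose edge lay 3 bp short of the end of the noncoding transcript PARP1-206. The third was a 25-read peak (16.2 to 36.9) in coding exon 3, with its edge 126 bp past the end of PARP1-202.

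The 34-read peak of PARP1 shows how summit and edge can fall in different places. Its summit was in intron 4 of the canonical transcript and its 3′ edge in coding exon 5, where the sequence after the edge was rich in A. It held 17 A in 25 bases, printed in capitals, and the only hexamer in the preceding 100 bases was AAGAAA, starting 9 bases before the edge.
PARP1 chr1:226388676-226388705, minus strand: aatctAAAAAAGAAAAAGACAAGGATAGTA
Of the 30 member peaks with a summit in a canonical intron, 4 had the edge in the next coding exon. They were 3 peaks of PARP1 (34, 14 and 11 reads) and 1 of LIG3 (8 reads). When every annotated form was considered, 2 of the 26 intronic summits (7.69%) had the edge in an exon or a transcript-end window, against 2.51% of 85760 over all protein-coding genes. Reads were extended by 100 bp along the genome, so the summit of such a peak can lie in the intron when the read began in the exon.

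By contrast, 3 PARP1 peaks lay wholly within introns and carried a hexamer at the usual distance. They were chosen for printing because little A-rich sequence followed them, with 3 to 6 A in the best 25 bases.
PARP1 intron 2 chr1:226395715-226395744, minus strand: acatAATAAAcattaattgcacgaatatgc
PARP1 intron 2 chr1:226393920-226393949, minus strand: ttgcctcATTAAAgtttcatctttcactaa
PARP1 intron 14 chr1:226374098-226374127, minus strand: aaacAATACAttggctgtcagcttcttgta
The peaks in intron 2 had 16 reads each (9.1 to 26.0) and that in intron 14 had 20 reads (12.2 to 30.9). A transcript ending in intron 2 would hold 9.40% of the coding bases of PARP1, and one ending in intron 14 would hold 68.0%. Both intron 2 peaks were lower than the terminal peak, with intervals that do not overlap its interval.

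PARP2, the second enzyme that makes poly(ADP-ribose) at breaks, lies at chr14:20343615-20357904 and had 3 peaks. The terminal peak had 24 reads (15.4 to 35.7). A peak in coding exon 7, chr14:20352155-20352293, had 25 reads (16.2 to 36.9). The 2 intervals overlapped. The exon 7 peak had no hexamer on the PARP2 strand and 11 A in the best 25 bases downstream. The tallest intronic peak of PARP2 had 14 reads (7.7 to 23.5) in intron 4. It followed hexamers in an A-rich stretch, with 16 A in 25 bases after the edge.
PARP2 intron 4 chr14:20349325-20349354, plus strand: AATAAAaAATAAAaacCATAAAaacattta

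Among the glycosylases, OGG1 excises oxidized guanine. It lies at chr3:9749944-9788219 and had 5 transcript-end peaks, the most of the 10 genes. The tallest, chr3:9757290-9757450, had 45 reads (32.8 to 60.2) and overlapped the end of CAMK1, a kinase gene on the other strand. Its opposite edge lay 57 bp past the annotated end of CAMK1 and AATAAA was present upstream of the edge on both strands, so the reads cannot be divided between OGG1 and CAMK1. A 24-read peak (15.4 to 35.7) lay 29 bp past the end of OGG1-203, a longer protein-coding form, with ATTAAA starting 21 bases and AATAAA 49 bases before its edge.
OGG1-203 end, chr3:9766627-9766656, plus strand: aacaAATAAActcatttaactaaagttaac
The tallest intronic peak of OGG1 had 29 reads (19.4 to 41.6), at chr3:9783005-9783235. It lay past the canonical end, inside the long annotated forms, and overlapped an annotated end of TADA3, which encodes a histone acetyltransferase subunit and lies on the minus strand. Another peak called intronic for OGG1 had 17 reads (9.9 to 27.2) and an edge within 1 bp of the canonical end of TADA3. On that strand it had AATAAA starting 31 bases before the edge, whereas no hexamer was found on the OGG1 strand. In all, 6 of the 8 OGG1 peaks had another gene at the summit.

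MUTYH removes adenine paired with oxidized guanine. It lies at chr1:45329163-45340893 on the minus strand and had 4 peaks, none with its summit in the window around a MUTYH end. The tallest peak at the locus, chr1:45328407-45329346, was 940 bp wide and had 55 reads (41.4 to 71.6). It covered the annotated ends of both MUTYH and HPDL, genes that face each other, and its summit lay in the HPDL exon. Its share from each gene could not be told apart. The 3 other peaks were intronic. Intron 1 held peaks of 24 reads (15.4 to 35.7) and 32 reads (21.9 to 45.2), ahead of all coding bases and without a hexamer. Intron 15 held a peak of 24 reads (15.4 to 35.7) after 91.7% of the coding bases, with ATTAAA starting 25 bases before its edge.
MUTYH intron 15 chr1:45330131-45330160, minus strand: actggATTAAAgcgattctcctgcctcagt
With 5.92 kb of introns, MUTYH had 0.507 intronic peaks per kb, higher than 98.7% of genes with a transcript-end peak and at least 1000 bases of intron. All 3 summits also lay in the introns of a longer annotated gene on the same strand, ENSG00000288208.

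UNG removes uracil from DNA. It lies at chr12:109097597-109126725 and had its tallest peak, with 29 reads (19.4 to 41.6), at the canonical end, chr12:109110885-109111057. The second was a 23-read peak (14.6 to 34.5) in intron 6 of the canonical transcript. This peak ended 2 bp short of the end of UNG-208, an annotated protein-coding form, after 85.3% of the canonical coding bases. Its hexamers were AGTAAA and ATTAAA, starting 50 and 22 bases before the edge.
UNG-208 end, chr12:109105470-109105499, plus strand: gcttggtcATTAAAgccaaattgcatatct
The tallest intronic peak of UNG had 16 reads (9.1 to 26.0), in intron 3, without a hexamer. The lowest, with 8 reads (3.5 to 15.8), lay beyond the canonical end in an intron of ACACB on the same strand. There, 20 of 25 bases after the edge were A.

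TDG excises thymine from mismatches and oxidized forms of methylated cytosine. It lies at chr12:103965822-103988874. Its terminal peak was 402 bp wide and had 47 reads (34.5 to 62.5). Intron 1 held 3 peaks with 32 reads (21.9 to 45.2), 27 reads (17.8 to 39.3) and 20 reads (12.2 to 30.9), all with a hexamer. The 50 bases on one side of the 20-read summit had 15 other identical copies in the genome, so its reads are not assigned to TDG with certainty. The first peak lay 0.892 kb from the gene start, overlapped the end of a long noncoding RNA and had a local background of 6.00 reads. Coding exon 3 held a peak of 32 reads (21.9 to 45.2) with AAGAAA starting 28 and 19 bases before the edge. The 50 bases on one side of this summit had an identical copy on chromosome 12 in TDGP1, a processed pseudogene of TDG. Whether whole reads match both places was not tested. In TDG the terminal interval overlapped those of the 32-read peaks.

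APEX1 encodes the endonuclease that nicks the strand at an empty site. It is the shortest of the 10 genes at 2.58 kb, chr14:20455191-20457772, with 0.696 kb of introns and no intronic peak. The peak over its end, chr14:20457660-20458881, was 1222 bp wide and had 63 reads (48.4 to 80.6), the tallest of the 62, over a local background of 10.1 reads. This peak also covered the end of PIP4P1, a phosphatase gene on the other strand. Its minus-strand edge lay 21 bp past the PIP4P1 end, with AATAAA starting 15 bases before that edge and so past the annotated PIP4P1 end. No hexamer was found at its plus-strand edge, 1114 bp past the canonical APEX1 end.
PIP4P1 end, chr14:20457660-20457689, minus strand: aacaaaaaaccctcaAATAAAaaatcttgg
A peak of 25 reads (16.2 to 36.9) just upstream, with its edge 227 bp short of the APEX1 end, had a −log10 q of 2.54. The height at APEX1 therefore cannot be read as its own.

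XRCC1, the scaffold that holds the repair enzymes together, lies at chr19:43543311-43580473 on the minus strand. Its terminal peak was low, with 18 reads (10.7 to 28.4). The tallest peak lay in intron 2, chr19:43572940-43573051, with 27 reads (17.8 to 39.3), and the intervals overlap. The intron 2 peak had no hexamer, and its edge lay in a run of A with 18 A in the next 25 bases, shown in capitals.
XRCC1 intron 2 chr19:43572915-43572944, minus strand: aaaaaAAAAAAAAAAAAGAAAAGATCTCAG
The 3 tallest of the 4 intronic peaks, with 27, 22 and 18 reads, also lay in an intron of the longer gene ENSG00000268361 on the same strand. The fourth, in intron 10, had 11 reads (5.5 to 19.7), no other gene at its summit and no hexamer.

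LIG1, the ligase of DNA replication and of long repair patches, lies at chr19:48115445-48170603 on the minus strand. At 55.2 kb it is the longest of the 10 genes. Its terminal peak had 18 reads (10.7 to 28.4), as in XRCC1. The tallest peak lay in intron 9, chr19:48146708-48146841, with 27 reads (17.8 to 39.3) and a −log10 q of 26.9, again with overlapping intervals. It carried TATAAA 27 bases and AATAAA 50 bases before the edge, and 4 A in the best 25 bases downstream. An antisense long noncoding RNA, ENSG00000269321, spans the site.
LIG1 intron 9 chr19:48146709-48146738, minus strand: tgtaTATAAAgttctgttttctatttcaag
Intron 4 of LIG1 held peaks of 21 reads (13.0 to 32.1) and 17 reads (9.9 to 27.2) whose only hexamers were tandem runs of AATAAA.
LIG1 intron 4 chr19:48159702-48159731, minus strand: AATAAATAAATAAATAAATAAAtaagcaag
LIG1 intron 4 chr19:48157542-48157571, minus strand: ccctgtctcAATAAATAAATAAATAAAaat
The 50 bases on one side of these summits had 118 and 11 other identical copies in the genome. Since reads with up to 20 placements were kept, the reads at these peaks are not assigned to LIG1 with certainty. A peak of 9 reads (4.1 to 17.1) in intron 25 had no hexamer, 20 A in 25 bases and 3 other identical copies of the bases on one side.

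LIG3, the partner of XRCC1 and also the ligase of mitochondria, lies at chr17:34980512-35009743. It had 9 peaks, all above the q cutoff. Its last exon held 4 of them, with 36 reads (25.2 to 49.8), 21 reads (13.0 to 32.1), 34 reads (23.5 to 47.5) and 30 reads (20.2 to 42.8) from 5′ to 3′. None reached the canonical end. The last 2 ended 502 and 148 bp short of it, with AATAAA starting 24 and 23 bases before the edge.
LIG3 chr17:35009212-35009241, plus strand: aatcttAATAAAagccacttgaagtaacaa
LIG3 chr17:35009566-35009595, plus strand: ttggtgtAATAAAaatgatgcaaaaaaaaa
RFFL, a ubiquitin ligase gene on the minus strand, overlaps this exon. The opposite edge of the 34-read peak lay 1 bp past an annotated RFFL end, also behind AATAAA, so that peak cannot be assigned to a strand. Intron 1 of LIG3 held its tallest intronic peak, chr17:34982224-34982343, with 33 reads (22.7 to 46.3). No other gene was annotated there, and AATAAA began 38 bases before the edge.
LIG3 intron 1 chr17:34982302-34982331, plus strand: tcacAATAAAaacttcatgaacataatgta
This peak lay 1.78 kb from the gene start, ahead of all coding bases, and its interval overlapped that of the tallest transcript-end peak.

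**Figure D2:**
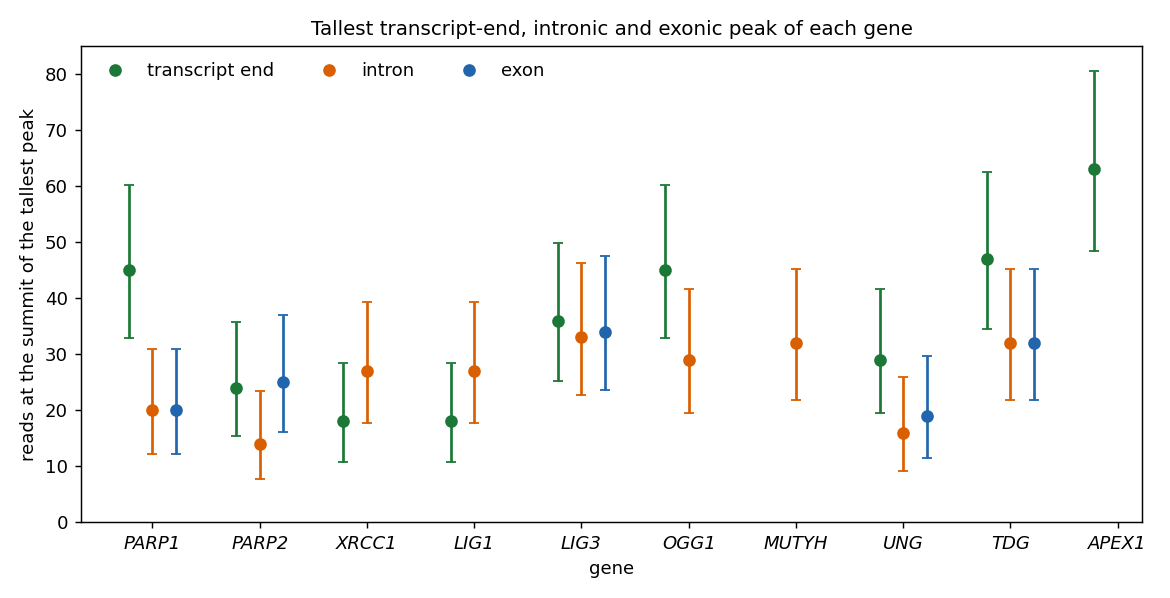
Reads at the summit of the tallest transcript-end, intronic and exonic peak of each gene, with exact 95% Poisson intervals as bars. A class without a peak is left out. PARP1 shows the widest separation (45 against 20 reads), whereas in XRCC1 and LIG1 the intronic peak (27 reads) stands above the terminal peak (18 reads) with overlapping intervals. The 34-read peak of PARP1, with its summit in canonical intron 4, counts as transcript-end and is not drawn. Its interval overlaps that of the 45-read peak.

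Over the 10 genes, the tallest peak lay at a transcript end in 6 (PARP1, LIG3, OGG1, UNG, TDG and APEX1). Of all protein-coding genes with a peak, 50.3% had this pattern. Counting the canonical transcript end alone, it held in 4 of the 10 genes (OGG1, UNG, TDG and APEX1). The tallest PARP1 and LIG3 peaks were then exonic. With classes from the 3′ edge, the pattern held in 5 genes. The share over all genes was not computed for either setting. With any annotated end counted, the tallest peak was exonic in PARP2, intronic in XRCC1 and LIG1 and downstream in MUTYH. An intronic peak taller than the tallest transcript-end peak was thus found in 2 of the 9 genes with such an end peak, against 27.0% of all 12834 such genes. The tallest transcript-end peaks had a median of 36 reads and a range of 18 to 63, and the median over all such genes was 25 reads.

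The 62 peaks comprised 21 transcript-end, 10 exonic, 26 intronic and 5 downstream peaks. The intronic share was 41.9% (95% Wilson interval 30.5 to 54.3), compared with 64.0% of the 134015 pairs of a protein-coding gene and a peak. The transcript-end share was 33.9% (23.3 to 46.3), compared with 20.2%. Of the 21 transcript-end peaks, 7 lay inside an intron of the canonical transcript, in the end window of another annotated form. Not all were close to that end, as the edges of a LIG1 and an OGG1 peak lay 427 and 441 bp past it. No share over all genes was computed for this count. Another annotated gene was present at the summit of 27 of the 62 peaks, a share that was not computed over all genes. With those removed, 13 intronic and 13 transcript-end peaks remained. Intronic peaks had a median of 20 reads in the members and 12 reads over all genes.

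An intronic peak was found in 9 of the 10 genes, against 58.8% of protein-coding genes. Among genes with a transcript-end peak, it was found in 8 of the 9 members and in 9992 of all 12834. The number of intronic peaks in those with one ran from 1 in PARP2 and LIG3 to 5 in LIG1. Per kb of intron it was 0.0612 in LIG3, 0.0838 in UNG, 0.0978 in PARP2, 0.102 in OGG1, 0.114 in LIG1, 0.116 in XRCC1, 0.135 in PARP1, 0.165 in TDG and 0.507 in MUTYH. The median over genes with a transcript-end peak was 0.0994 and the upper quartile 0.159, so 7 of these values were below that quartile. Summed over the members the rate was 0.122 per kb, and without summits shared with another gene it was 0.0612 per kb. Shared summits were not removed from the values over all genes, so the lower rate has no counterpart there. Of 22 intronic peaks in a numbered intron of the canonical transcript, 7 were in the first intron and 15 lay before the middle of the coding sequence. Neither count was made over all genes, so a leaning to the 5′ side cannot be read from them.

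**Figure D3:**
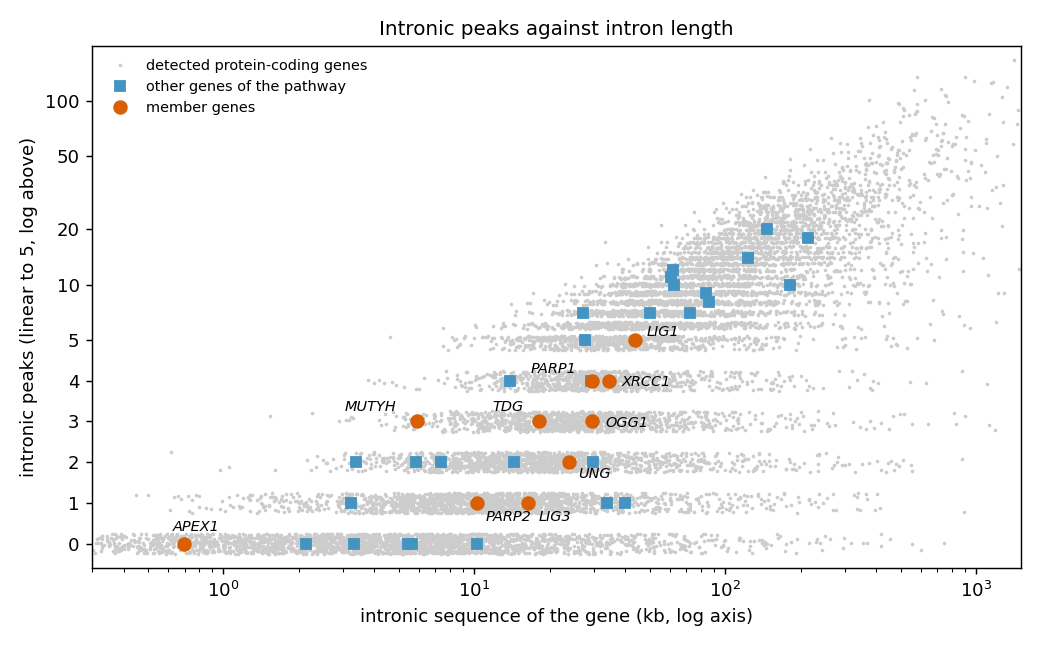
Intronic peaks of each gene (y axis, linear to 5 and logarithmic above) against its intronic sequence in kb (log x axis). Grey points are genes with a transcript-end peak, squares are the 28 other genes of the pathway and circles the members. The members hold 0 to 5 intronic peaks and all but MUTYH, with 3 peaks in 5.92 kb, sit within the body of the grey points.

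At least 1 of the 12 hexamers was found in the 100 bp before the 3′ edge of 41 of the 62 peaks, 66.1% (53.7 to 76.7), close to the 62.5% of all gene and peak pairs. On the opposite strand of the same places it was 41.9% (30.5 to 54.3) in the members and 44.1% over all pairs. AATAAA alone was found at 18 member peaks, 29.0% (19.2 to 41.3), against 30.5% of all pairs. Transcript-end peaks had a hexamer in 16 of 21 cases, exonic peaks in 6 of 10, intronic peaks in 14 of 26 and downstream peaks in 5 of 5. Over all genes these shares were 79.2%, 68.6%, 57.0% and 52.9%. Of 75 hexamers found at member peaks, 42 started 15 to 44 bases before the edge.

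A-rich sequence, at least 18 A in some 25 bases of the 50 bp past the edge, was found at 4 of the 62 peaks, 6.45% (2.54 to 15.4), against 19.6% of all pairs. They were the XRCC1 intron 2 peak, the LIG1 intron 25 peak, the 8-read UNG peak and a 17-read OGG1 peak in intron 3. None of the 4 had a hexamer. Among intronic peaks the share was 11.5% (4.0 to 29.0) in the members and 26.9% over all genes. Neither a hexamer nor such a stretch was found at 17 peaks, 27.4% (17.9 to 39.6), close to the 24.8% of all pairs.

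**Figure D4:**
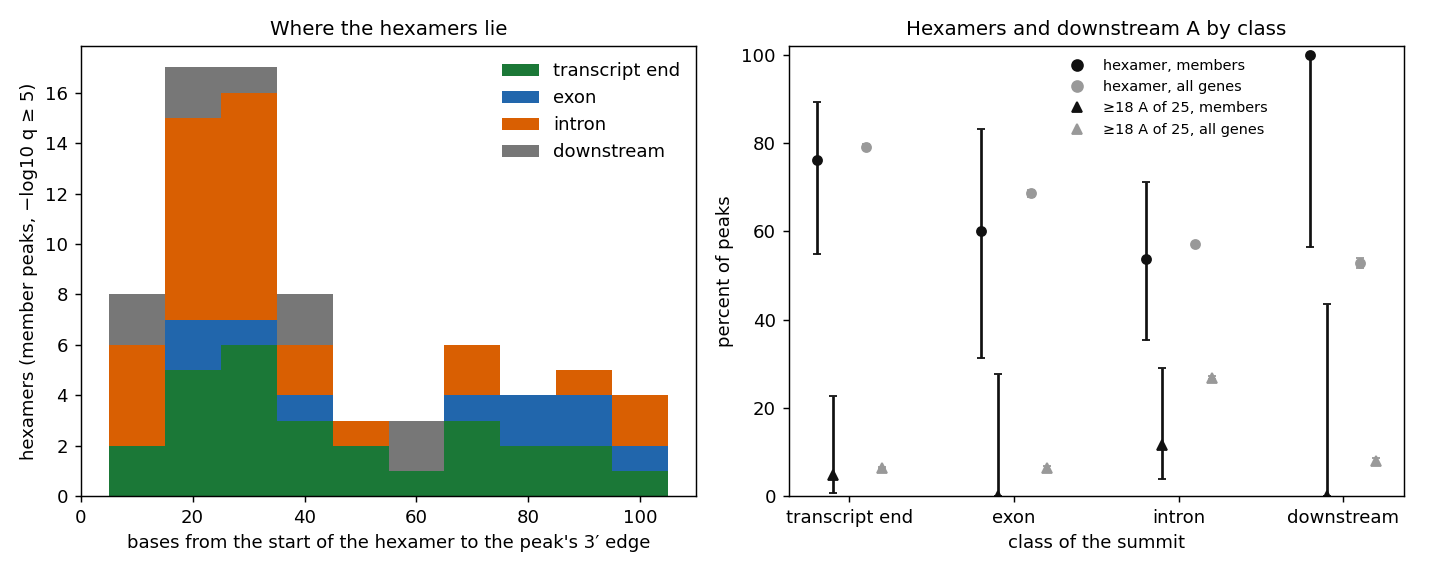
Left, the number of hexamers at each distance from their first base to the 3′ edge, in bins of 10 bases and coloured by class, with most of the 75 at 15 to 44 bases. Right, the percent of peaks in each class with a hexamer (circles) or with at least 18 A of 25 (triangles), with 95% Wilson intervals, for members (black) and all protein-coding genes (grey); the members' intervals include the grey values except at hexamers of downstream peaks.

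Most AATAAA words in these genes had no 3′ edge 10 to 50 bases on. The 10 gene bodies held 141 on the coding strand and 234 on the other strand, and the coding strand had fewer in 7 of 10 genes and in 68.7% of all protein-coding genes. Of the 141, a 3′ edge followed 10 to 50 bases from the first base of 20, or 14.2%. The words printed for the terminal peaks of OGG1 and UNG began 71 and 86 bases before the edge and are not among the 20. No share over all genes was computed. LIG1 alone accounted for 10 of the 20, most of them overlapping words of its tandem runs in intron 4. In TDG, which had the highest density at 1.26 per kb against a median of 0.738 per kb over genes with a transcript-end peak, this was true of 1 of 29, the one at its terminal peak.

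Other genes of the pathway were taken from a list of 28 genes sorted by role. A transcript-end peak was found in 24 of them, with a median of 27 reads for the tallest, and an intronic peak in 23. The intronic peak was the taller in 7 of those 24. Among other glycosylases, 7 of 7 had a transcript-end peak, and the most intronic peaks were found in SMUG1 (12), which excises uracil, and NEIL3 (7), which excises oxidized bases. Of 5 genes for end processing, 3 had a transcript-end peak. APEX2, a relative of APEX1, and APLF, a factor that binds poly(ADP-ribose), had none, although APLF had 10 intronic peaks and APTX, which removes adenylate from failed ligations, had 14. All 4 gap-filling genes had a transcript-end peak, and the flap endonuclease gene FEN1 reached 91 reads with no intronic peak. Intronic peaks numbered 7 in RFC1, a clamp loader subunit, and 4 in the polymerase gene POLB. Of 12 genes of ADP-ribose metabolism, 10 had a transcript-end peak and PARP10 and PARP14 had none by summit. PARG, which breaks down poly(ADP-ribose), had 20 intronic peaks and TNKS, or tankyrase, had 18. The tallest intronic peak of PARG had 50 reads, above the 21 reads of its tallest transcript-end peak. Summed per kb of intron, the rate was 0.175 for glycosylases, 0.0909 for end processing, 0.0966 for gap filling and 0.116 for ADP-ribose metabolism. Over all genes with a transcript-end peak it was 0.0862. The rates for end processing and ADP-ribose metabolism also include listed genes without such a peak, so those sets differ from it.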

How the data were processed

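Poly(A) 3′-seq libraries of IMR-32 cells were analysed as the authors' single peak list. Per the study's methods and processing notes, the authors trimmed reads with bbduk, mapped them to GRCh38 with STAR (2.5.1b), keeping up to 20 placements, merged the samples and ran MACS2 (2.1.1) without a control, extending reads to 100 bp. The deposited values are a fold enrichment over local background, −log10 p and −log10 q values and the offset of the summit, all from the pooled reads.

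For each peak, the pileup and background that give its deposited fold and its −log10 p were found (Poisson upper tail, largest misfit 0.000172), and the solver was checked on simulated peaks. Annotation was Gencode 44, whereas the study used an earlier release, and all coordinates are 1-based GRCh38. The 12 hexamers are those the study lists: AATAAA, with variants inside the word (ATTAAA and AGTAAA and ACTAAA and AAGAAA), at the first base (TATAAA and CATAAA and GATAAA) and near the 3′ end (AATATA and AATACA and AATGAA and AATAGA). The search covered the 100 bp up to and including the 3′ edge on the gene strand, and matches may overlap. A-rich sequence was at least 18 A in 25 bases within 50 bp past that edge. Intervals are 95% exact Poisson for heights and 95% Wilson for shares. Identical copies were 50 bases on either side of a summit, searched on both strands of the genome. Computations used Python (3.11.15) with numpy (2.4.6), pandas (2.3.3) and scipy (1.17.1).

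The members and lists were chosen with earlier results of these data known. All members are named, with their tallest transcript-end and intronic peaks and any taller peak; in the pathway list, genes with no transcript-end peak and those with the most intronic peaks per role are named, and FEN1 was named after its value was seen. Alternatives changed the q cutoff, the window and transcript for ends, the treatment of shared and A-rich sites, and the hexamer rule. Nothing was compared between treatments. Of the cell type markers chosen, 2 are not reported here.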

Additional observations from a re-analysis of the deposited data

How the results depend on the processing

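No paired analysis was possible because the peaks are pooled over libraries, and leaving out single replicates was not possible. The cause of a shift was not tested, except that some settings remove peaks or words by construction.

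With −log10 q of at least 20, 14 of the 62 peaks were left, with 3 intronic peaks in place of 26, 8 transcript-end peaks in place of 21 and 0.0141 intronic peaks per kb in place of 0.122. The share with a hexamer was then 78.6% in place of 66.1%, and the share with A-rich sequence was 0% in place of 6.45%. At least 22 A in 25 bases was found at 0% of the 62 peaks (Wilson interval 0 to 5.83), against 4.01% of all gene and peak pairs. The value over all pairs lies inside that interval, so the 0% does not set the members apart. The paper used this cutoff to remove peaks that lacked a hexamer. Counting the canonical transcript end alone left 9 transcript-end peaks. Counting only summits without another gene left 13 intronic peaks, 13 transcript-end peaks and 0.0612 intronic peaks per kb, still over all intronic bases. AATAAA alone gave a share of 29.0%, and a hexamer window ending at the summit gave 37.1%. The other 31 values under alternatives stayed within 1.5 times the reported count or inside its interval. They include 77 peaks with no q minimum, and 9 genes with a peak at the canonical end and 24 intronic peaks when classes came from the 3′ edge, both of which were chosen after seeing the data. The height of a peak limits what could be found, as the lowest member peak above the cutoff had 8 reads, and a site used in 1 treatment only is pooled with the reads of the other libraries.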

Other observations

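Some peaks that count for a member fell at the ends of its neighbours on the other strand. The canonical ends of CAMK1, PIP4P1 and RFFL lay inside peaks of OGG1, APEX1 and LIG3, with the edges 57, 21 and 34 bp past them. For RFFL this was the 21-read peak in the last exon of LIG3, chr17:35005956-35006135. TADA3 ended 1 bp beyond the edge of an OGG1 peak. GLT8D2, on the other strand from TDG and facing it, ends at 103988987 on chromosome 12, past the TDG end at 103988874, and the TDG terminal peak stopped at 103988876, short of it.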
